A study of Mus musculus with 4 samples.

Results

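Transcripts of 10 inflammatory chemokine genes were followed in single cells of mouse bone and bone marrow. The genes were Ccl2, Ccl7, Ccl11, Ccl4, Cxcl1, Cxcl2, Cxcl5, Cxcl9, Cxcl10 and Cxcl14. They were chosen by symbol from the 32285 genes of the count matrices, and each had 1 row in both matrices. The cells came from femur and tibia of INK-ATTAC mice that received no treatment, a young one (6 months, n = 1) and an old one (24 months, n = 1). INK-ATTAC carries a transgene in which a fragment of the p16 promoter drives an inducible caspase 8, and both mice carried it. Marrow was digested with Liberase and crushed bone with collagenase, cells with blood lineage markers were depleted, and live CD45- cells were sorted. Each cell was read by CITE-seq, in which an oligonucleotide on a CD24 antibody is counted together with the transcripts of a cell. With 1 mouse per age, a difference between the ages cannot be told apart from a difference between animals or libraries.

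The values are counts of unique molecular identifiers (UMIs), and a level is given in counts per 1000000 UMIs (CPM), the UMIs of a gene scaled to the RNA UMIs of the same cell group in the same mouse. Parentheses give exact 95% intervals, which reflect the counting of UMIs or cells and nothing else. After barcodes with under 200 genes or over 20% mitochondrial UMIs were left out, 10063 young and 5607 old cells remained, with 81076421 and 66702846 RNA UMIs. The median depth was 6385 UMIs per young cell and 9711 per old cell, and 19 of the kept barcodes occurred in both libraries. Cells were grouped by 15 lists of 8 marker genes each, none of which is among the chemokines. The stromal group, set by Lepr, Adipoq, Kitl and other genes of the reticular cells of marrow, held 3130 young and 1956 old cells. The fibroblast group, set by Pi16, Dpt, Clec3b and others, held 2923 and 1338 cells. The osteoblast group, set by Bglap, Ibsp, Sp7 and others, held 785 and 461 cells. The blood group, a union of 8 blood lists, held 1094 and 823 cells. Each mesenchymal group had UMIs of all 8 of its own markers in both mice, which is no check of identity, since these markers set the groups. Markers of other lists were found in them too. In stromal cells the summed osteoblast markers stood at 7673 CPM (young) and 5268 CPM (old), against 14161 and 13621 CPM for the stromal markers. In osteoblasts the osteoblast markers stood at 17597 and 29617 CPM. Although cells had been sorted as CD45-, the CD45 gene Ptprc was found in 41.4% of young and 45.9% of old blood cells, against 2.24% and 1.69% of stromal cells.

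Chemokines are small secreted proteins that bind receptors on leukocytes and steer their migration. Ccl2 and Ccl7 attract monocytes through Ccr2, Ccl11 (eotaxin) attracts eosinophils through Ccr3, and Ccl4 attracts monocytes and T cells. Cxcl1, Cxcl2 and Cxcl5 attract neutrophils through Cxcr2, Cxcl9 and Cxcl10 are interferon-induced ligands of Cxcr3 on T cells, and Cxcl14 is made by many epithelia and stromal tissues without an inflammatory stimulus. In bone marrow, chemokines of stromal cells hold stem cells in their niche and release leukocytes into the blood, and several members are counted among the secreted factors of senescent cells.

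Most members lie in clusters of related genes, with positions given on mouse build GRCm38.p6 from RefSeq. On chromosome 11, Ccl2 spans 82035577 to 82037452, Ccl7 spans 82045712 to 82047525 and Ccl11 spans 82057832 to 82062955, with 8259 bases between the first pair and 10306 between the second. Ccl4 lies on the same chromosome at 83648624 to 83664683, an interval that overlaps the annotated interval of Ccl3, and reads of overlapping genes may not be separable. On chromosome 5, Cxcl5 spans 90759298 to 90761625, Cxcl1 spans 90891245 to 90893121 and Cxcl2 spans 90903899 to 90905938, with 10777 bases between Cxcl1 and Cxcl2. Further along, Cxcl9 spans 92321331 to 92328079 and Cxcl10 spans 92346638 to 92348889, 18558 bases apart, and Cxcl10 overlaps Art3. Cxcl14 stands alone on chromosome 13 at 56288643 to 56296811.

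The RefSeq table held the promoters of 5 of the 10 members, and these are shown because the members differ in the motifs near their start and in the cells that expressed them. Each sequence is the 250 bases before an annotated start, read 5′ to 3′ on the strand of the gene. For Cxcl14 the start used lies inside the gene interval given above, so the bases and the match shown for it lie within that interval. Capitals mark matches to the NF-kB motif GGANNTTCC, which all begin with GGA, and to the interferon response motif TTTCNNTTT on either strand, which here begin with AAA. NF-kB is the transcription factor downstream of tumor necrosis factor and interleukin 1. Cxcl1 is shown at chr5:90890995-90891244 (plus strand), Cxcl2 at chr5:90903649-90903898 (plus strand), Cxcl9 at chr5:92328080-92328329 (minus strand), Cxcl10 at chr5:92348890-92349139 (minus strand) and Cxcl14 at chr13:56296552-56296801 (minus strand).
Cxcl1: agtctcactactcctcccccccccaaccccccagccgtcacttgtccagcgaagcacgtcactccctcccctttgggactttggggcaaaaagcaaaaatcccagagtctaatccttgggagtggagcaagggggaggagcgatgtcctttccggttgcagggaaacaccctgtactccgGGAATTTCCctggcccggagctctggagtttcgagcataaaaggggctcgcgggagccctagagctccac
Cxcl2: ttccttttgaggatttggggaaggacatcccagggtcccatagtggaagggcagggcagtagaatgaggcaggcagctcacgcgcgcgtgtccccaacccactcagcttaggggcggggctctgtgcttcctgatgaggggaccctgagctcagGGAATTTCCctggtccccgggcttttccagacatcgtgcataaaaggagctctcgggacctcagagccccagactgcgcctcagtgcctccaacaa
Cxcl9: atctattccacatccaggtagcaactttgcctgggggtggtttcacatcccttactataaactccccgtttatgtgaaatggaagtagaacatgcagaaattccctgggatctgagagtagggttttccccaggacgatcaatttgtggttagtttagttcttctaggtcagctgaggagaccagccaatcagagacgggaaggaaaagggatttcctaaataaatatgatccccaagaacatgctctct
Cxcl10: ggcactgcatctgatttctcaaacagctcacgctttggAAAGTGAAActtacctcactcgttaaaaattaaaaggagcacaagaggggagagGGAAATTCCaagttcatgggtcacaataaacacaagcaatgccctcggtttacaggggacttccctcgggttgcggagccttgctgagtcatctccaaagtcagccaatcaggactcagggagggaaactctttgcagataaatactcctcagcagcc
Cxcl14: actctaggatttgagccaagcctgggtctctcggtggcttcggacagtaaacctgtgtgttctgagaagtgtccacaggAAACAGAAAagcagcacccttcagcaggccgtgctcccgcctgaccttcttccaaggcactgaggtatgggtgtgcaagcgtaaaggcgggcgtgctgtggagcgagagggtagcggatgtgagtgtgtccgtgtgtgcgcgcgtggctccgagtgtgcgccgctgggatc
The neighbors Cxcl1 and Cxcl2 carried the same 9 letters, GGAATTTCC, 70 and 96 bases before their starts, and Cxcl10 carried GGAAATTCC 158 bases before its start. Cxcl10 also held AAAGTGAAA and Cxcl14 held AAACAGAAA. Of 32851 promoters of the same 300 bases (250 before and 50 after the start), 4.26% held the NF-kB motif and 10.6% the interferon response motif. The AP-1 motif TGANTCA was found in Cxcl9 and Cxcl10 and in 7.81% of all promoters. The Cxcl9 match began 31 bases after the start, outside the bases printed, while the Cxcl10 match lay within them. The C/EBP motif TTNNGNAA, which is short, was found in Cxcl2, Cxcl9 and Cxcl10 and in 40.7% of all promoters. These matches describe letters in a window and not binding.

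Across the 4 cell groups the members fell into distinct patterns. Ccl2, Ccl7, Ccl11, Cxcl1 and Cxcl2 were higher in fibroblasts than in stromal cells, Cxcl14, Cxcl9, Cxcl5, Cxcl10 and Ccl4 were higher in stromal cells, osteoblasts were lower than stromal cells in 9 of the 10, and Ccl4 was highest in blood. UMIs were summed per mouse and group and tested with edgeR's quasi-likelihood F test in 2 mice, with the mouse as a block. Between fibroblasts and stromal cells, 10 of 10 members passed an adjusted p of 0.05, 5 higher and 5 lower, in a comparison where 40.7% of 15552 genes passed. The median log2 fold change was -0.13 over the members and -0.03 over all genes. Between osteoblasts and stromal cells, 9 of 10 members were lower and none higher, against 35.9% of genes past the threshold, with a median of -3.64 against -0.05 over all genes. Between fibroblasts and osteoblasts, 8 of 10 were higher in fibroblasts and none lower, against 27.7% of genes, with a median of 3.63 against 0.02. Between the mean of the mesenchymal groups and blood, 7 members were higher and 2 lower, against 77.0% of genes, a share so large that the count of members says little. All 4 comparisons come from 1 fit and share sums. The overall direction of calls depended on the scaling. Between fibroblasts and stromal cells 3219 genes were higher and 3104 lower with TMM factors, but 2257 and 4239 with library totals, and between osteoblasts and stromal cells 2777 and 2800 became 1748 and 4669. No member changed its call or direction between these scalings in the comparisons of cell groups. When a barcode was instead put in the list with the largest sum of marker UMIs, each sum divided by the mean of its list, 6 of 10 members passed between fibroblasts and stromal cells, and Ccl2, Ccl4, Cxcl9 and Cxcl10 did not (edgeR adjusted p from 0.0502 to 0.881). Under that rule Ccl2, Cxcl9, Cxcl10 and Cxcl14 no longer passed between mesenchymal cells and blood.

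**Figure D1:**
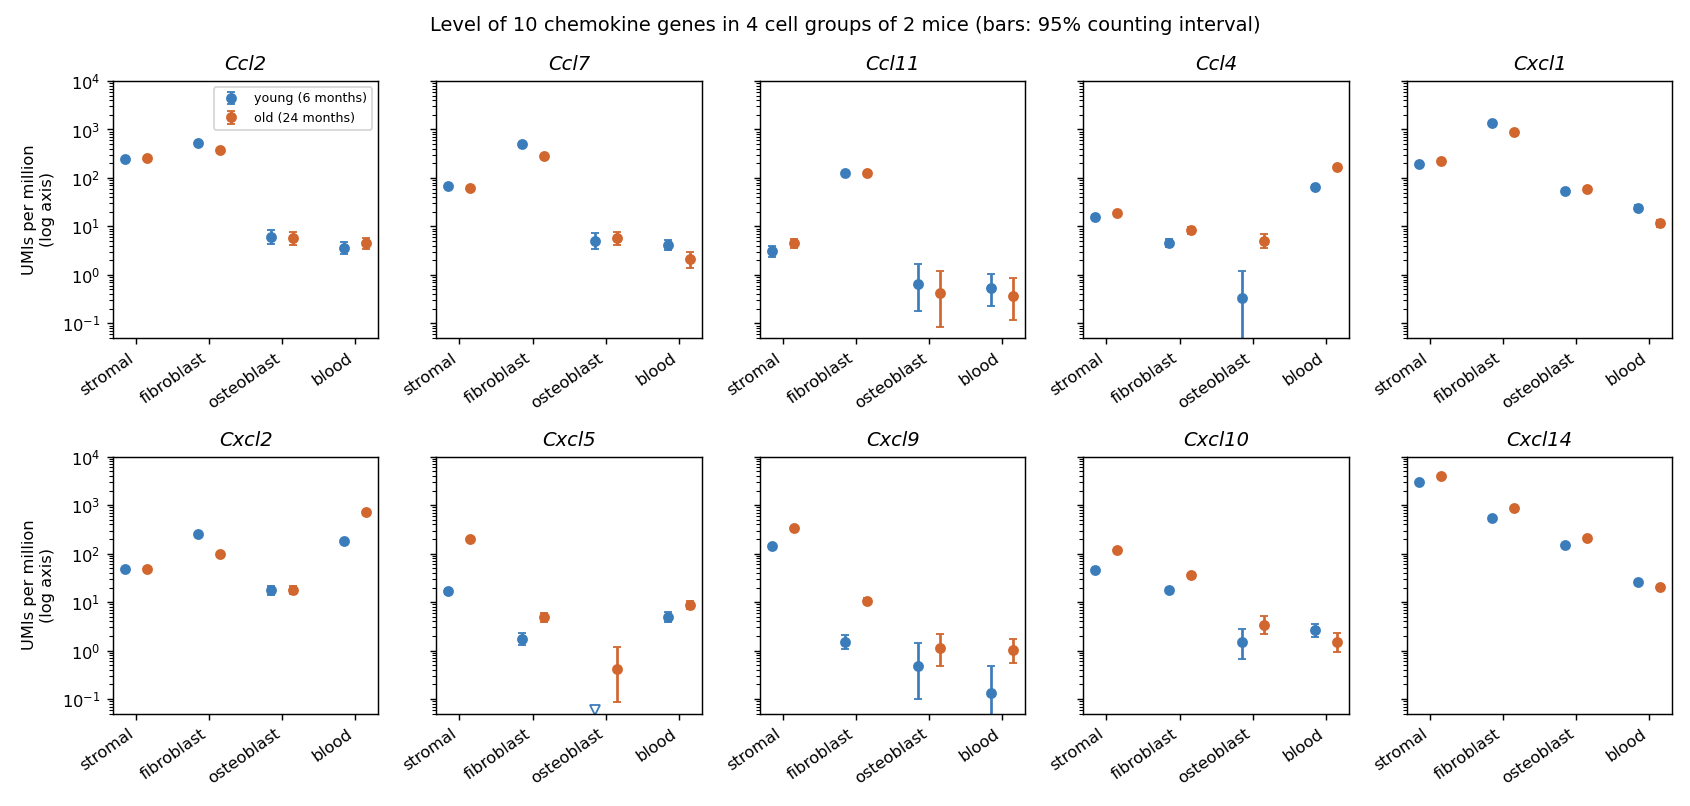
Level of each member in CPM (log axis) in the stromal, fibroblast, osteoblast and blood groups of each mouse, with exact Poisson intervals and an open triangle for 0 UMIs. Cxcl14 reached 2949 and 4065 CPM in stromal cells and Cxcl1 reached 1348 and 887 CPM in fibroblasts, while Ccl4 was highest in blood in both mice.

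Cxcl14 was a transcript of nearly every stromal cell. Its level was 2949 CPM in young and 4065 CPM in old stromal cells, 550 and 871 CPM in fibroblasts, 150 and 207 CPM in osteoblasts, and 25.5 and 20.0 CPM in blood cells. The order stromal, fibroblast, osteoblast, blood held in both mice, and no intervals of neighboring groups overlapped. Fibroblasts were lower than stromal cells, with a log2 fold change of -2.12 (SE 0.226, edgeR adjusted p = 0.000586), and so were osteoblasts, with -4.00 (SE 0.246, edgeR adjusted p = 0.000108). When each cell was thinned to 2000 UMIs, 90.7% (89.5 to 91.7) of young and 93.8% (92.6 to 94.9) of old stromal cells held at least 1 UMI of Cxcl14, which was close to the shares before thinning, 94.2% and 92.9%. In erythroid cells, which are not a source of Cxcl14, the thinned share was 2.59% and 3.82%, a level that free RNA in the droplets can give, at a median depth before thinning of 17970 and 18527 UMIs against 5314 and 8349 in stromal cells. UMIs of Cxcl14 were spread over many stromal cells, with the richest 1% of cells holding 10.6% and 8.23% of them.

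Cxcl9 and Cxcl10 were also higher in stromal cells than in fibroblasts, but came from few cells. Cxcl9 measured 145 CPM in young and 336 CPM in old stromal cells, 1.52 and 10.8 CPM in fibroblasts, 0.490 and 1.10 CPM in osteoblasts, and 0.135 and 1.02 CPM in blood. Stromal cells thus held 96.6% and 95.6% of the Cxcl9 UMIs over all kept cells of the young and old mouse, and their levels stood above those of every other group in both. The log2 fold change of fibroblasts over stromal cells was -5.42 (SE 0.365, edgeR adjusted p = 9.27e-05). At 2000 UMIs per cell, 4.97% (4.20 to 5.83) of young and 11.6% (10.2 to 13.2) of old stromal cells had a UMI of Cxcl9, against 7.76% and 20.9% before thinning and 0 of 464 and 1 of 419 erythroid cells. For erythroid cells of the young mouse, a count of 0 allows a share of up to 0.647%. The richest 1% of stromal cells held 74.0% of young and 53.2% of old Cxcl9 UMIs, and the single richest young cell held 17.4%.

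Cxcl10 measured 46.4 CPM in young and 118 CPM in old stromal cells, 17.7 and 36.0 CPM in fibroblasts, 1.47 and 3.45 CPM in osteoblasts, and 2.63 and 1.52 CPM in blood. Stromal cells were above fibroblasts in each mouse, and osteoblasts and blood cells did not keep the same order in both. Fibroblasts were lower than stromal cells, with a log2 fold change of -1.36 (SE 0.308, edgeR adjusted p = 0.0128), a call that ended without the mouse block (adjusted p = 0.0604). At 2000 UMIs, 2.45% of stromal cells and 1.68% of fibroblasts of the young mouse had a UMI of Cxcl10, and 2.68% and 3.96% of the old. The intervals of these shares overlapped in each mouse, the order in the old mouse turned in 1 of 4 random draws of the thinning, and no order was read from them. The richest 1% of stromal cells held 84.3% and 87.9% of the Cxcl10 UMIs, and 1 old stromal cell alone held 594 of 1953.

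Cxcl5 was found in stromal cells and in megakaryocytes. It measured 16.6 CPM in young and 199.9 CPM in old stromal cells, 1.75 and 4.84 CPM in fibroblasts, and 4.99 and 8.64 CPM in blood. Osteoblasts had 0 young and 3 old UMIs. Fibroblasts were lower than stromal cells, with a log2 fold change of -4.34 (SE 0.633, edgeR adjusted p = 0.0022), while the difference between mesenchymal cells and blood, -1.16, did not pass (SE 0.776, edgeR adjusted p = 0.209). It passed with DESeq2 (adjusted p = 0.0447) and, at -1.67, with lists chosen by scaled marker UMIs (edgeR adjusted p = 0.00239). It turned to 1.72 (edgeR adjusted p = 0.0962) when the mesenchymal UMIs of a mouse were pooled into 1 sum and fitted with blood alone. That is another quantity, since the main contrast weighs the mesenchymal groups equally on the log scale, osteoblasts among them. Within blood, the cells of the megakaryocyte list (69 young and 50 old) had nearly all of it, 74 of 74 young and 112 of 119 old UMIs, or 67.6 (53.1 to 84.9) and 105 CPM (86.6 to 127). At 2000 UMIs, 12.1% and 17.0% of megakaryocytes and 1.92% and 14.7% of stromal cells had a UMI of Cxcl5, against 0% and 0.477% of erythroid cells. Megakaryocyte transcripts were measured beside it, and their part in the stromal level was not tested. Stromal cells had 150 young and 280 old UMIs of Pf4, the platelet factor of megakaryocytes, and 41 and 82 of the platelet chemokine Ppbp. Per 100 UMIs of Pf4 there were 0.223 and 0.332 UMIs of Cxcl5 in megakaryocytes and 211 and 1179 in stromal cells. Stromal cells with a Cxcl5 UMI held Adipoq in 92.7% (82.4 to 98.0) of young and 92.6% (88.7 to 95.5) of old cells at 2000 UMIs, against 76.6% and 82.4% of those without.

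**Figure D2:**
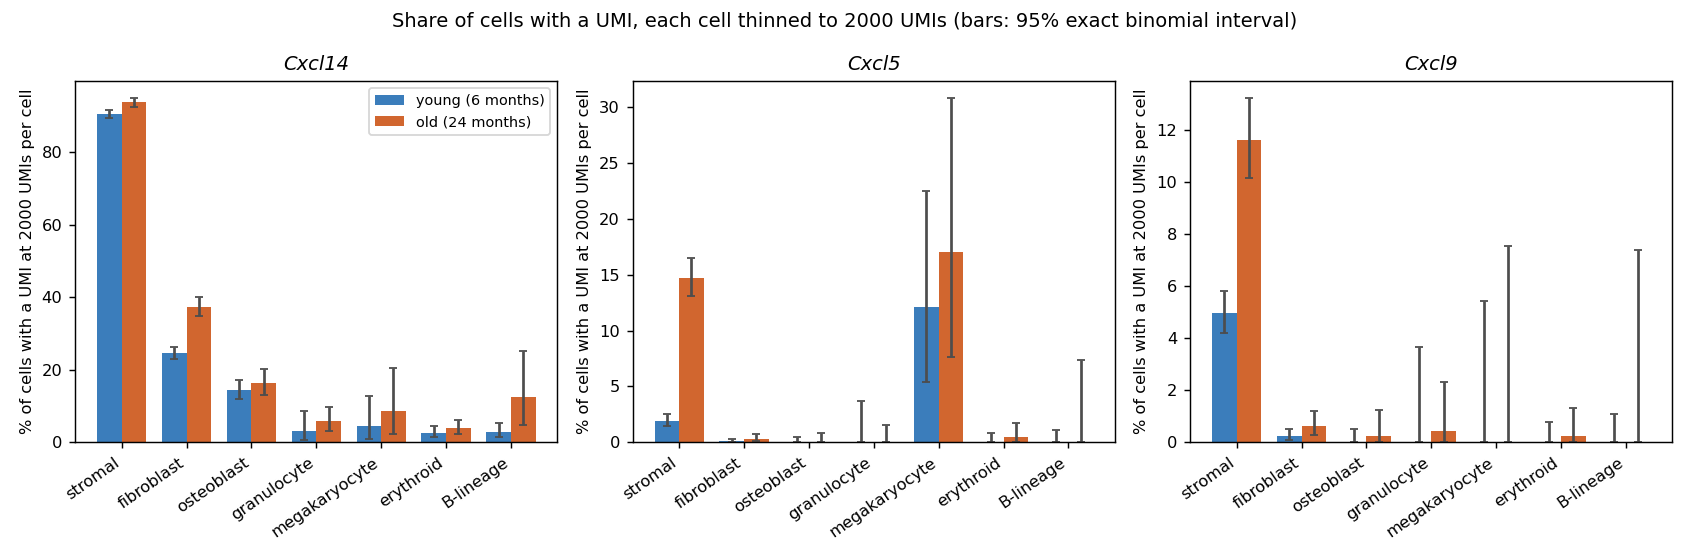
Percent of cells with at least 1 UMI of Cxcl14, Cxcl5 and Cxcl9 after every cell was thinned to 2000 UMIs, in 3 mesenchymal groups and 4 kinds of blood cell of each mouse, with exact Clopper-Pearson intervals. Cxcl14 stood at 90.7% and 93.8% of stromal cells, while Cxcl5 was found in 1.92% of young and 14.7% of old stromal cells and stayed at or under 0.477% of erythroid cells.

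Of the 4 groups, fibroblasts had the highest levels of Cxcl1, Ccl2 and Ccl7, attractants of neutrophils and monocytes. Cxcl1 measured 1348 CPM in young and 887 CPM in old fibroblasts, 195 and 224 CPM in stromal cells, 53.4 and 57.8 CPM in osteoblasts, and 24.5 and 11.6 CPM in blood. The 4 groups kept this order in both mice, with no overlap of neighboring intervals. Fibroblasts were higher than stromal cells by 2.58 on the log2 scale (SE 0.308, edgeR adjusted p = 0.000942) and higher than osteoblasts by 4.20 (SE 0.335, edgeR adjusted p = 0.00027). At 2000 UMIs, 27.2% (25.6 to 28.9) of young and 26.9% (24.5 to 29.4) of old fibroblasts had a UMI of Cxcl1, against 38.2% and 43.1% before thinning and 1.08% and 0.955% of erythroid cells. Outside the 4 groups, cells of the pericyte list had 713 and 337 CPM of Cxcl1, with 89.0% of the young UMIs in 1 cell, and cells of the tendon list had 159 and 250 CPM.

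Ccl2 measured 538 CPM in young and 374 CPM in old fibroblasts and 250 and 258 CPM in stromal cells. Osteoblasts had 6.05 and 5.65 CPM and blood cells 3.64 and 4.50 CPM, which overlapped in their counting intervals in both mice. The log2 fold change of fibroblasts over stromal cells was 1.04 (SE 0.186, edgeR adjusted p = 0.00515) and that of osteoblasts over stromal cells -5.15 (SE 0.243, edgeR adjusted p = 5.77e-05). The shares of cells did not follow this difference. At 2000 UMIs, 12.5% (11.3 to 13.8) of young stromal cells and 10.1% (9.01 to 11.3) of young fibroblasts had a UMI of Ccl2. In the old mouse the shares were 9.64% and 8.83%, with overlapping intervals, and no order was read from them. Stromal cells held 24.9% of young and 37.0% of old Ccl2 UMIs over all kept cells, and fibroblasts 72.1% and 59.2%. In fibroblasts the richest 1% of cells held 45.3% of young and 55.1% of old Ccl2 UMIs.

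Ccl7, the neighbor of Ccl2, measured 493 CPM in young and 277 CPM in old fibroblasts, 66.6 and 62.7 CPM in stromal cells, 5.07 and 5.65 CPM in osteoblasts, and 4.18 and 2.11 CPM in blood. Fibroblasts were above stromal cells in both mice, by 2.73 on the log2 scale (SE 0.242, edgeR adjusted p = 0.000274). At 2000 UMIs, 14.1% and 10.5% of fibroblasts and 5.70% and 4.85% of stromal cells had a UMI of Ccl7, against 0.431% and 0.477% of erythroid cells. In cells of the pericyte list all 362 young UMIs of Ccl7 came from 1 cell of 65.

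Ccl11 was the member most narrowly held by fibroblasts by share of its UMIs. It measured 125 CPM in both the young (121 to 129) and the old (120 to 130) fibroblasts, 3.04 and 4.48 CPM in stromal cells, 0.654 and 0.414 CPM in osteoblasts, and 0.539 and 0.363 CPM in blood. Fibroblasts thus held 96.3% and 92.6% of its UMIs, and its level in the other groups was low. The log2 fold change of fibroblasts over stromal cells was 5.27 (SE 0.184, edgeR adjusted p = 1.52e-05). At 2000 UMIs, 13.8% (12.6 to 15.1) of young and 16.8% (14.8 to 18.9) of old fibroblasts had a UMI of Ccl11, against 0.216% of young and 0 of 419 old erythroid cells, which allows up to 0.716%. Osteoblasts had only 4 and 3 UMIs of Ccl11, and their lower call against stromal cells was lost after thinning (adjusted p = 0.146).

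Cxcl2 and Ccl4 had high levels in granulocytes, which remained after the depletion of cells with blood lineage markers. Cells of the granulocyte list (136 young and 271 old) had 5422 and 6739 CPM of Cxcl2 and 1827 and 1561 CPM of Ccl4. They held 2644 of the 2755 young and 9557 of the 9797 old Cxcl2 UMIs in blood. Of the Cxcl2 UMIs over all kept cells, granulocytes held 21.6% at 6 months and 62.2% at 24 months, against 54.2% and 11.9% in fibroblasts. At 2000 UMIs, 66.7% and 82.1% of granulocytes had a UMI of Cxcl2 and 37.4% and 30.8% had one of Ccl4, against 0.862% and 2.39% of erythroid cells for Cxcl2. Mesenchymal cells were lower than blood in Ccl4, with a log2 fold change of -4.16 (SE 0.301, edgeR adjusted p = 1.84e-05), and in Cxcl2, with -3.15 (SE 0.527, edgeR adjusted p = 0.00126). The Cxcl2 call was lost when the mesenchymal UMIs of a mouse were pooled into 1 sum and fitted with blood alone (edgeR adjusted p = 0.120). Pooling no longer weighs the mesenchymal groups equally.

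Among mesenchymal cells, Cxcl2 measured 259 CPM in young and 100.3 CPM in old fibroblasts, 48.0 and 49.0 CPM in stromal cells, and 17.5 and 17.8 CPM in osteoblasts. Fibroblasts were the highest of these groups in both mice, by 2.14 over stromal cells on the log2 scale (SE 0.689, edgeR adjusted p = 0.0458). Osteoblasts did not differ from stromal cells past the threshold (-1.17, SE 0.724, edgeR adjusted p = 0.251), though they did when those sums alone were fitted (adjusted p = 0.000347). The call between fibroblasts and stromal cells lay near the threshold and was lost when cells needed 2 markers (adjusted p = 0.0506) or 4 markers (0.0563) for a group. Ccl4 measured 15.5 and 18.8 CPM in stromal cells, 4.56 and 8.35 CPM in fibroblasts and 0.327 and 5.10 CPM in osteoblasts, from few cells in each, since 1 cell held 80.3% of the young and 59.2% of the old fibroblast UMIs. Its difference of -1.30 between fibroblasts and stromal cells (SE 0.412, edgeR adjusted p = 0.0435) was lost with DESeq2 (adjusted p = 0.0932) and without the mouse block (0.182). Granulocyte genes were measured beside Cxcl2 and Ccl4, and their part in the mesenchymal levels was not tested. The summed granulocyte markers, all 8 of which were found, stood at 463 and 615 CPM in stromal cells, 4.99 and 37.8 CPM in fibroblasts, 23.7 and 17.5 CPM in osteoblasts and 1597 and 4436 CPM in blood. Per 100 UMIs of S100a8, a calprotectin subunit of neutrophils, there were 2.07 and 1.59 UMIs of Ccl4 in granulocytes, 1.99 and 1.66 in stromal cells, and 49.8 and 8.34 in fibroblasts. For Cxcl2 the same ratio was 6.14 and 6.86 in granulocytes, 6.18 and 4.34 in stromal cells, and 2828 and 100.2 in fibroblasts. Stromal cells with a Cxcl2 UMI held Ptprc in 34.5% of young and 42.4% of old cells at 2000 UMIs, against 0.500% and 0.233% of those without, while in fibroblasts with a Cxcl2 UMI it was 1.28% and 4.84%.

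**Figure D3:**
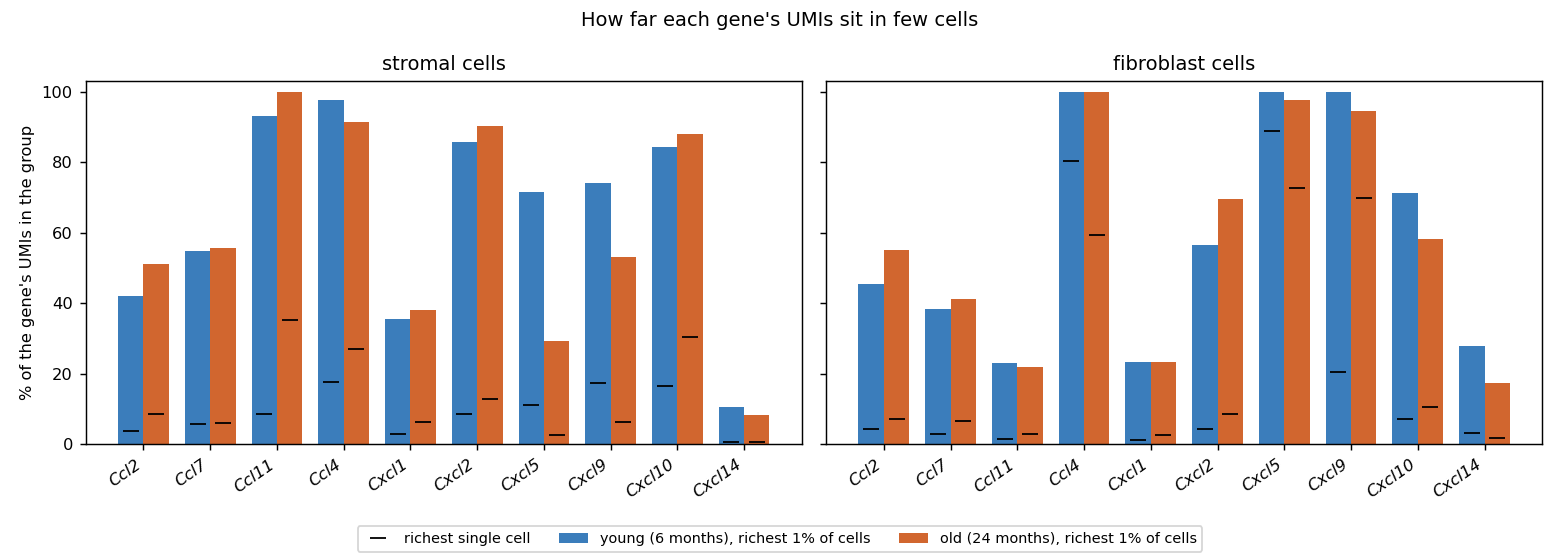
Percent of the UMIs of each member held by the richest 1% of stromal cells and of fibroblasts in each mouse (bars), with the part held by the single richest cell (black lines). Stromal Cxcl14 was spread over many cells (10.6% and 8.23%). Stromal Ccl4 was found in only 39 of 3130 young and 47 of 1956 old cells. The richest 1% therefore held nearly all of its UMIs (97.6% and 91.3%), which restates how few cells had it.

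The inflammatory members met in the same fibroblasts. At 2000 UMIs per cell, Ccl2 was found in 289 of 2863 young and 116 of 1313 old fibroblasts. Of the young cells with Ccl2, 60.2% (54.3 to 65.9) held Ccl7 and 77.2% (71.9 to 81.9) held Cxcl1, against 8.90% and 21.6% of those without. Of the old cells with Ccl2, 50% (40.6 to 59.4) held Ccl7 and 76.7% (68.0 to 84.1) held Cxcl1, against 6.68% and 22.1%. Fibroblasts with Ccl2 also held more often the transcripts of Il6, the cytokine interleukin 6 (33.9% against 5.98% young, 49.1% against 8.27% old), and of Tnfaip6, a hyaluronan-binding protein induced by tumor necrosis factor (68.2% against 19.6% young, 69.0% against 24.9% old). The same held for Nfkbia, the NF-kB inhibitor, with 87.5% against 45.7% of young cells and 87.1% against 42.1% of old cells. Ccl11 and Cxcl14 showed no such link to Ccl2. Ccl11 was found in 14.9% of young fibroblasts with Ccl2 and 13.7% of those without, and in 19.0% and 16.5% of the old ones. Cxcl14 was found in 25.3% against 24.5% of the young cells and 30.2% against 38.1% of the old, with overlapping intervals in the young and the old mouse. All 3 of Ccl2, Ccl7 and Cxcl1 occurred together in 5.10% of young and 3.81% of old fibroblasts, while 67.2% and 68.6% held none of them. These cells share a library and a depth of 2000 UMIs, and no test was made over cells.

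Fibroblasts with Cxcl2 showed the same. Of the young fibroblasts with a Cxcl2 UMI, 86.5% held Cxcl1, 61.5% held Ccl7 and 48.1% held Il6, against 23.8%, 11.3% and 6.54% of those without. In the old mouse the shares were 71.0% for Cxcl1, 40.3% for Ccl7 and 45.2% for Il6, against 24.7%, 9.03% and 10.2%. In stromal cells the link between Ccl2 and Ccl7 was smaller in percent, and 18.4% of young and 21.3% of old cells with Ccl2 held Ccl7, against 3.88% and 3.09% of those without.

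Cxcl9 and Cxcl10 met in stromal cells. Of the stromal cells with Cxcl10 (70 young and 47 old), 28.6% (18.4 to 40.6) and 51.1% (36.1 to 65.9) also held Cxcl9, against 4.38% and 10.6% of the others. Iigp1, which codes for an interferon-induced GTPase, was also more frequent in cells with Cxcl10, found in 44.3% against 23.1% of young and 74.5% against 35.3% of old stromal cells. The stromal marker Adipoq was found in 75.4% of young and 88.2% of old stromal cells with Cxcl9, against 77.0% and 83.3% of those without, with overlapping intervals. In fibroblasts, cells with Cxcl10 held Cxcl1 in 72.9% of young and 75.0% of old cells, against 26.5% and 24.9% of those without, while Cxcl9 was found in 8.33% and 3.85% of them.

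**Figure D4:**
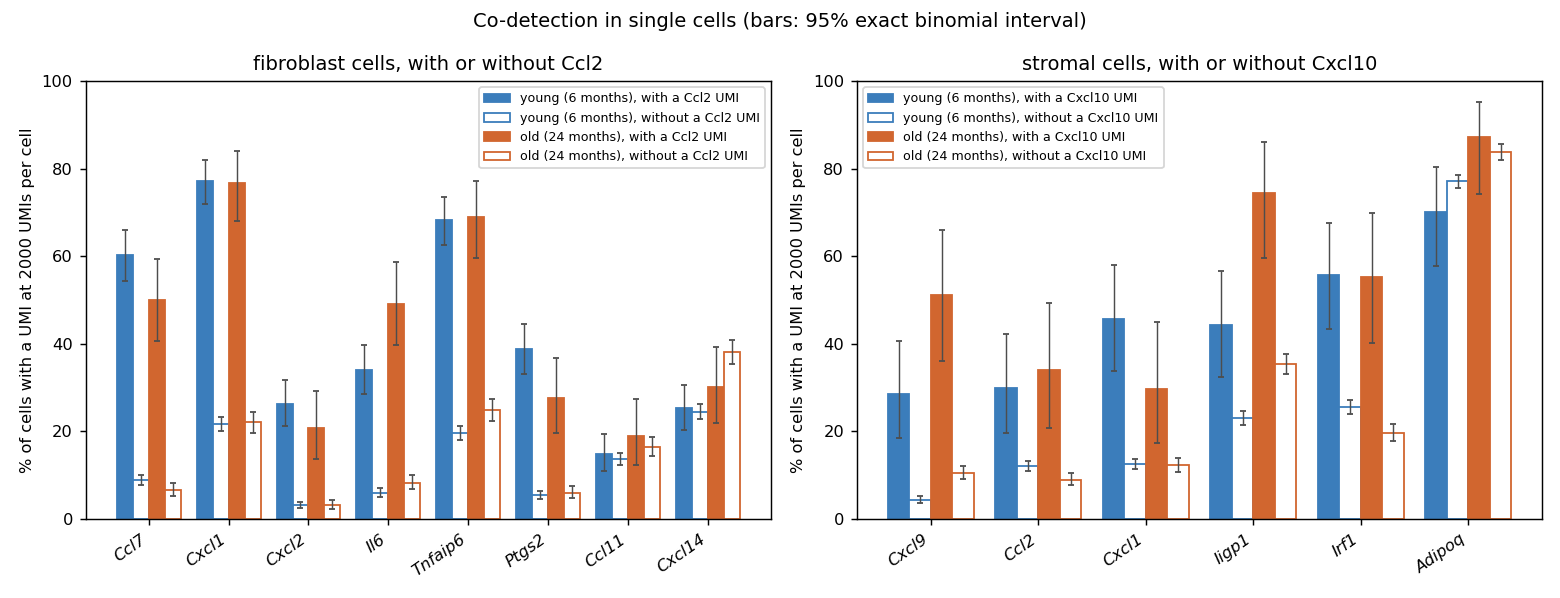
Percent of cells with a UMI of a second gene among cells with and without a UMI of a member, after thinning to 2000 UMIs, with exact intervals. Fibroblasts with Ccl2 held Cxcl1 in 77.2% and 76.7% of cells against 21.6% and 22.1% without, and stromal cells with Cxcl10 held Cxcl9 in 28.6% and 51.1% against 4.38% and 10.6%.

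Genes of pathways linked to the members were read from the same fit. Over all genes, 40.7% passed between fibroblasts and stromal cells, 35.9% between osteoblasts and stromal cells and 27.7% between fibroblasts and osteoblasts. Of 22 NF-kB-linked genes tested, 14 differed between fibroblasts and stromal cells, 9 higher and 5 lower in fibroblasts (edgeR). Those with the largest fold changes were Ptgs2, the inducible cyclooxygenase (3.61 on the log2 scale, SE 0.533), Vcam1, an adhesion molecule of marrow stroma (-3.46, SE 0.191), Tnfaip6 (3.32, SE 0.165) and Il1b, interleukin 1 beta (-3.29, SE 0.722). Of 18 interferon-linked genes tested, 1 was higher and 10 were lower in fibroblasts, among them Iigp1 (-3.76) and the guanylate-binding protein genes Gbp5 (-2.16) and Gbp3 (-1.47). The median log2 fold change was -0.09 over the NF-kB-linked genes and -0.89 over the interferon-linked genes. Against stromal cells, osteoblasts were lower in 14 of 22 NF-kB-linked genes, led by C3 of the complement system (-5.36), Lcn2 (-5.23), Saa3 (-5.10) and Il1b (-4.00), and in 16 of 18 interferon-linked genes, led by Iigp1 (-5.67), Gbp5 (-4.17), Rsad2 (-3.98) and Isg15 (-2.97), with none higher in either list. The medians of the NF-kB-linked and interferon-linked lists were -1.20 and -2.07, against -0.05 over all genes. Summed granulocyte markers stood at 463 and 615 CPM in stromal cells, 4.99 and 37.8 CPM in fibroblasts and 23.7 and 17.5 CPM in osteoblasts. The part of granulocyte transcripts in the differences of Il1b and Lcn2 was not tested. Fibroblasts were higher than osteoblasts in 13 of 22 NF-kB-linked genes, led by C3 (7.00), Il6 (4.29), Tnfaip6 (3.72) and Ptgs2 (3.54), and in 12 of 18 interferon-linked genes, led by Rsad2 (3.34), Ifit1 (2.50), Gbp2 (2.38) and Gbp5 (2.01), with none lower and medians of 1.29 and 1.38. Against blood, where 77.0% of all genes passed, the counts of these lists and of those described next say little by themselves. Mesenchymal cells were higher than blood in 13 and lower in 4 of 22 NF-kB-linked genes, with Il1b (-5.30), Vcam1 (5.17), Lif (4.70) and Lcn2 (-4.69) the largest. They were higher in 10 and lower in 2 of 18 interferon-linked genes, with Iigp1 (4.09), Ifit3 (3.88), Rsad2 (-3.08) and Irf1 (3.01) the largest.

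Other chemokines followed patterns of their own. Of 14 tested, 2 were higher and 7 lower in fibroblasts than in stromal cells, and those with the largest fold changes were Ccl9 (-4.60), Ccl5 (4.43), Ccl8 (3.91), a monocyte attractant like Ccl2, and Cxcl12 (-3.76), the chemokine that retains stem cells in marrow. In osteoblasts 7 were lower than in stromal cells and none higher, led by Cxcl13 (-6.63), Cxcl12 (-6.34), Ccl9 (-5.14) and Ccl8 (-3.76), and 6 were lower than in fibroblasts, led by Ccl5, Ccl8, Cxcl13 and Cxcl12. Against blood, 4 were higher and 8 lower in mesenchymal cells, with the platelet chemokines Pf4 (-8.12) and Ppbp (-7.82) the lowest, then Cxcl3 (-5.13) and Ccl6 (-5.09). Of 13 chemokine receptors tested, 3 were higher and 5 lower in fibroblasts than in stromal cells. The atypical receptors, which bind chemokines without G protein signaling, led this list, with Ackr1 (5.09), Ackr3 (4.76) and Ackr2 (4.67) higher in fibroblasts and Ackr4 (-5.05) higher in stromal cells. Osteoblasts were higher than stromal cells in 1 receptor, Ackr3 (2.51), and lower in 4, Cx3cr1 (-6.06), Cxcr2 (-2.85) and Cxcr4 (-2.28) among them. The part of granulocyte transcripts in the stromal level of Cxcr2 was not tested. Fibroblasts were higher than osteoblasts in 4 receptors, with Ackr1 (6.45), Cx3cr1 (4.73) and Ackr2 (3.96) the largest, and lower in Ackr4 (-2.94). Against blood, 2 receptors were higher and 8 lower in mesenchymal cells, led by Ccr7 (-7.54), Cxcr1 (-5.67), Cxcr4 (-5.23) and Ccr2 (-5.23).

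Immediate-early genes, which rise when cells are stimulated or stressed, were measured beside the members because the tissue had been digested. Their summed level over 13 genes was 11676 and 10401 CPM in stromal cells, 11917 and 12178 CPM in fibroblasts, 10774 and 7619 CPM in osteoblasts and 2147 and 2571 CPM in blood. Fibroblasts were higher than stromal cells in 3 of 13, Atf3 (2.42), Ier3 (1.66) and Egr1 (0.53). Osteoblasts were higher in 2, Ier3 (1.20) and Atf3 (1.02), and lower in Zfp36 (-0.45). Fibroblasts were higher than osteoblasts in 3, Dusp1 (1.42), Atf3 (1.40) and Zfp36 (0.75), and lower in Hspa1a (-0.80), and mesenchymal cells were higher than blood in 11 of 13, led by Fosb (3.87), Egr1 (3.45), Fos (3.13) and Junb (2.10). Fos was found in 65.4% of young and 66.4% of old fibroblasts with Ccl2, against 72.9% and 76.8% of those without, at 2000 UMIs. The part of the digestion in the level of any member was not tested.

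Between the ages, members moved in different directions in different cells. With 1 mouse per age there was no test, and a gene was counted as changed where its CPM differed by over 2-fold with at least 20 UMIs over both mice. In stromal cells 3 of 10 members were over 2-fold higher in the old mouse, where 2.44% of 14367 genes were, and none was over 2-fold lower, where 2.24% of genes were. In fibroblasts 3 of 10 were over 2-fold higher, against 3.11% of 14228 genes, and 1 was lower, against 2.16%. In osteoblasts 2 of the 7 members with enough UMIs were over 2-fold higher, against 2.42% of 12286 genes, and none was lower, against 3.82%. In blood 2 of 8 were over 2-fold higher, against 4.91% of 12909 genes, and 1 was lower, against 5.75%. The median log2 ratio of old over young was 0.37 over the members in stromal cells and 0.33 in fibroblasts, against 0.03 and 0.01 over all genes with enough UMIs. For several of these differences most UMIs came from a few cells, as given below for each.

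In stromal cells Cxcl5 was 12-fold higher in the old mouse (10.7 to 13.5), with 16.6 CPM in the young and 199.9 CPM in the old. It was 13.2-fold higher without the richest cell of each mouse, and the share of stromal cells with a UMI at 2000 UMIs was 1.92% (1.45 to 2.50) at 6 months and 14.7% (13.1 to 16.5) at 24 months. Pf4 and Ppbp were 2.16-fold and 2.31-fold higher in old stromal cells, and the summed megakaryocyte markers stood at 10.3 and 11.0 CPM. Cxcl9 was 2.32-fold higher (2.21 to 2.43) with 4.97% of young and 11.6% of old stromal cells holding a UMI at 2000 UMIs. Cxcl10 was 2.55-fold higher (2.35 to 2.76) and 2.13-fold without the richest cell, but its share of stromal cells, 2.45% (1.91 to 3.08) and 2.68% (1.98 to 3.55), overlapped between the mice. Cxcl14 was 1.38-fold higher (1.36 to 1.39). The other stromal ratios lay between 0.941 for Ccl7 and 1.47 for Ccl11 (1.05 without its richest cells), and Ccl2 (1.03), Ccl7 and Cxcl2 (1.02) had intervals that included no difference.

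In fibroblasts Cxcl2, Ccl7, Cxcl1 and Ccl2 were lower in the old mouse. Cxcl2 stood at 0.388 of its young level (0.368 to 0.408), Ccl7 at 0.562 (0.544 to 0.581), Cxcl1 at 0.658 (0.645 to 0.670) and Ccl2 at 0.695 (0.675 to 0.715). The shares of fibroblasts with a UMI at 2000 UMIs had overlapping intervals for Cxcl1 (27.2% and 26.9%), Cxcl2 (5.45% and 4.72%) and Ccl2 (10.1% and 8.83%), while those of Ccl7, 14.1% (12.8 to 15.4) and 10.5% (8.90 to 12.3), did not overlap in the draw given. The order of the mice turned in 1 of 4 draws of the thinning for Cxcl1 and for Ccl2. The ratio of Ccl11 was 0.999 (0.946 to 1.05), an interval that includes no difference. Cxcl14 was 1.58-fold higher (1.55 to 1.62), and 24.6% of young and 37.4% of old fibroblasts held a UMI of it at 2000 UMIs. Cxcl10 was 2.04-fold higher (1.81 to 2.30) and 1.96-fold without the richest cell, with shares of 1.68% and 3.96%. In old fibroblasts 1 cell held most of the UMIs of each of Cxcl9, Cxcl5 and Ccl4, but the ratios did not all shrink without the richest cells. Cxcl9 was 7.09-fold higher (5.01 to 10.3), but 2.68-fold (1.71 to 4.29) without the richest cell of each mouse, 1 old cell having held 69.9% of its UMIs. Cxcl5 was 2.76-fold higher (1.90 to 4.04) from 45 and 88 UMIs, of which 1 young cell held 88.9% and 1 old cell 72.7%. It was found in 6 of 2923 young and 16 of 1338 old fibroblasts before thinning. Ccl4 was 1.83-fold higher (1.43 to 2.35) over all fibroblasts and 3.80-fold (2.32 to 6.43) without the richest cell of each mouse. Granulocyte markers moved with it, from 4.99 to 37.8 CPM in summed level and from 235 to 1822 UMIs of S100a8, and their part in the ratio was not tested.

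In osteoblasts Ccl4 was 15.6-fold higher (4.03 to 134) from 2 young and 37 old UMIs, 75.7% of the latter in 1 cell. Cxcl10 was 2.34-fold higher (1.06 to 5.71) from 9 and 25 UMIs and 1.93-fold (0.751 to 5.54) without the richest cell, and Cxcl14 was 1.38-fold higher (1.27 to 1.5). Cxcl2 in osteoblasts had a ratio of 1.02 (0.781 to 1.33) over all cells, where 1 young cell held 91.6% of its UMIs, and was 7.88-fold higher (3.96 to 17.8) without the richest cell of each mouse. In blood Cxcl2 was 3.83-fold higher (3.67 to 4.00) and Ccl4 2.55-fold (2.37 to 2.75), while Cxcl1 stood at 0.473 (0.391 to 0.572), or 0.578 without the richest cell. The other blood ratios ran from 0.504 for Ccl7 to 1.73 for Cxcl5. The makeup of the blood group moved with these ratios, since granulocytes were 136 of 1094 young and 271 of 823 old blood cells. Within granulocytes Cxcl2 was 1.24-fold higher (1.19 to 1.30) and Ccl4 stood at 0.854 (0.790 to 0.925).

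**Figure D5:**
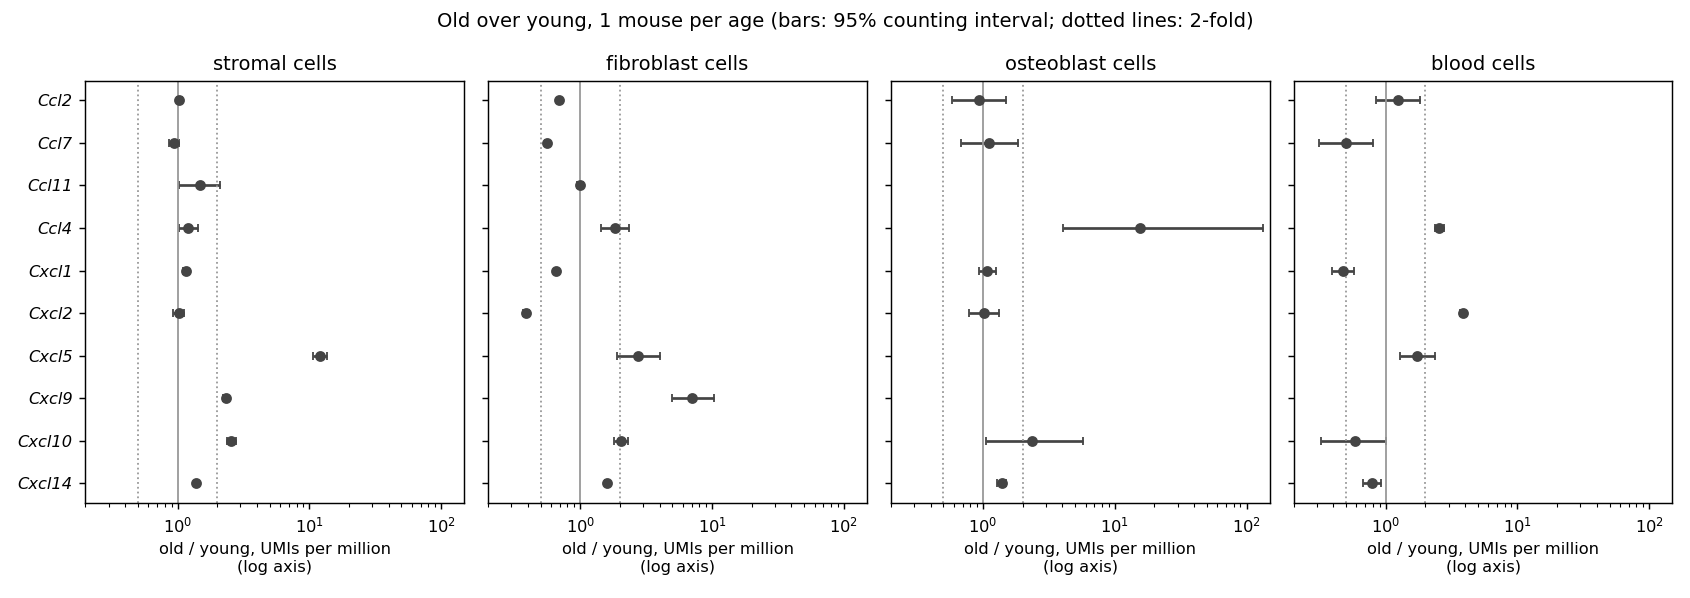
Ratio of old over young CPM of each member (log axis) in each cell group, with exact counting intervals, 1 mouse per age, and dotted lines at a 2-fold difference. Members with under 20 UMIs in a group are not drawn. Cxcl5 in stromal cells stood at 12, while Cxcl2, Ccl7, Cxcl1 and Ccl2 in fibroblasts lay between 0.388 and 0.695.

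Interferon-linked genes moved with Cxcl9 and Cxcl10 in the old stromal cells. Of 19 such genes, 8 were over 2-fold higher in old stromal cells and none lower, and their summed level was 827 CPM in the young and 1408 CPM in the old mouse. The median log2 ratio was 0.94, against 0.03 over all genes. Rsad2, the antiviral protein viperin, had the largest ratio (4.43), followed by Oasl2 (2.38), Ifit3 (2.35) and Iigp1 (2.35). In fibroblasts 0 of 18 were over 2-fold different, with summed levels of 397 and 403 CPM. In osteoblasts 1 of 16 was higher, with 211 and 192 CPM, and in blood 8 of 18, with 138 and 263 CPM. Over all genes with enough UMIs, 2.44% were over 2-fold higher in stromal cells, 3.11% in fibroblasts, 2.42% in osteoblasts and 4.91% in blood. NF-kB-linked genes were over 2-fold higher in 2 of 22 in old stromal cells, Il6 (2.34) and Lcn2 (2.18), with none lower. In fibroblasts 3 of 21 were higher and none lower, namely Il1b (4.81), Lcn2 (4.16) and Saa3 (3.09), where the summed granulocyte markers stood at 4.99 and 37.8 CPM and their part was not tested. In osteoblasts 2 of 20 were higher, Lcn2 (7.03) and Il1b (4.46), and none lower. In blood 8 of 21 were higher and 1, Il6, was lower (0.359). Granulocytes were 136 of 1094 young and 271 of 823 old blood cells, and the part of this makeup in the blood ratios of both lists was not tested. None of the 13 immediate-early genes differed by over 2-fold in the 3 mesenchymal groups.

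The study asked how CD24+ cells differ from CD24- cells, and the members were compared between these over the mesenchymal groups together. A cell was taken as CD24+ where its antibody count was above 318 (young) or 404 (old), the Otsu threshold of each. This threshold was set over all kept cells of a library, blood cells included. Many mesenchymal cells had counts close to it on either side, 608 young and 203 old. The CD24+ cells were 157 young and 56 old stromal cells, 139 and 39 fibroblasts, and 152 and 65 osteoblasts. The split by CD24 was thus not sharp. With 4 sums from 2 mice, 3 of 10 members were lower in CD24+ cells and none higher, in a comparison where 11.8% of 15001 genes passed, and the median log2 fold change was -0.80 over the members and -0.0029 over all genes. Here too the split of calls moved with the scaling, from 1015 higher and 752 lower with TMM factors to 1008 and 1128 with library totals. Cxcl14 measured 816 CPM in CD24+ and 1468 CPM in CD24- cells of the young mouse, and 1029 and 2077 CPM in the old. It was lower in CD24+ cells of both mice, with a log2 fold change of -0.87 (SE 0.0605, edgeR adjusted p = 0.000806). Ccl11 measured 27.4 and 68.4 CPM in the young and 21.3 and 58.1 CPM in the old mouse, a log2 fold change of -1.32 (SE 0.0986, edgeR adjusted p = 0.000896). Cxcl5 had 1 UMI in young CD24+ cells against 361 in CD24- cells, and 82 against 3310 in the old mouse (-1.64, SE 0.343, edgeR adjusted p = 0.0265). The makeup of the mesenchymal cells moved with CD24, and when the 12 sums of the 3 groups were fitted with the cell group as a term, 7 members had enough UMIs to be tested and 0 of them passed in edgeR, with 2 at an unadjusted p under 0.05. Of 11110 genes 20 passed, with 1640 at an unadjusted p under 0.05. In that fit Cxcl14 stood at -0.55 (adjusted p = 0.0548) and Ccl11 at -0.76 (adjusted p = 0.126).

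Within fibroblasts, Ccl2 ran the other way by CD24 status than within stromal cells. In fibroblasts it measured 1103 CPM in CD24+ and 495 CPM in CD24- cells of the young mouse and 669.9 and 362 CPM in the old. In stromal cells it measured 104 and 265 CPM in the young and 169 and 262 CPM in the old mouse. These values were not tested within groups. The CD24+ fibroblasts numbered 139 young and 39 old, and the CD24+ stromal cells 157 and 56. Over all fibroblasts the richest 1% of cells held 45.3% of young and 55.1% of old Ccl2 UMIs, so few CD24+ cells may carry these levels. How many did was not examined. Over the mesenchymal cells together Ccl2 did not pass (0.11, SE 0.0995, edgeR adjusted p = 0.577), with 426 CPM in CD24+ and 359 CPM in CD24- cells at 6 months and 238 and 266 CPM at 24 months. The other lists were read from the fit without the cell group as a term, where 11.8% of 15001 genes passed. With that term only 20 of 11110 genes passed, and the lists were not counted there. The part of the cell group in the values that follow was thus not tested. Of the pathway lists, 9 of 18 interferon-linked genes were lower in CD24+ cells and none higher, led by Ifit1 (-1.09), Iigp1 (-0.96), Ifit3 (-0.93) and Gbp3 (-0.81). Of 22 NF-kB-linked genes 7 were lower, with C3 (-0.90), Vcam1 (-0.67) and Icam1 (-0.67) the largest, and 1 higher, Il1b (0.80). Of 13 other chemokines 5 were lower, with Cxcl13 (-1.59), Ccl9 (-1.31), Ccl8 (-1.11) and Cxcl12 (-0.78) the largest. The receptor Cxcr4 was higher (1.86), as were the immediate-early genes Ier3 (0.49) and Hspa1a (0.38).

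The genes whose levels across cell groups were most like those of each member were sought among 13053 genes, over 18 sums of 9 marker lists, by Pearson's r of log2(CPM + 1). The points share libraries, and these coefficients are a description. For Ccl2 they were Slco2b1 (r = 0.95) and Phyhipl (0.94), for Ccl7 Lif (0.88), a cytokine of the interleukin 6 family, and Plau (0.87), the urokinase, and for Ccl11 Efhd1 (0.92) and Gata6 (0.91). For Ccl4 they were Acod1 (0.97) and Itgam (0.95), the integrin chain CD11b of myeloid cells, and for Cxcl2 Traf1 (0.93) and Apobr (0.92). For Cxcl1 they were Ndrg1 (0.94) and Ugdh (0.93), for Cxcl5 Gm26569 (0.92) and Dok6 (0.91), and for Cxcl14 2210039B01Rik (0.95) and Negr1 (0.95). For Cxcl9 they were A530020G20Rik (0.95) and Rgs20 (0.94), and for Cxcl10 Hoxa13 (0.90) and Kazn (0.88). Between members the closest pairs were Ccl4 with Cxcl2 (0.85), Ccl2 with Cxcl14 (0.85), Ccl7 with Cxcl1 (0.82) and Ccl7 with Ccl11 (0.80).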

How the data were processed

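The authors deposited 1 matrix of raw UMI counts per mouse, covering 32285 genes and the CD24 antibody, without normalization. The file headers name Cell Ranger 6.1.1 (an earlier version is given in the methods of the study). The submitters' processing notes also name R 4.0.3, Seurat 4.0 and build mm10. The 3′ chemistry counts transcript ends, so isoforms are not separated, and free RNA in a droplet is counted with the cell.

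Barcodes with at least 200 genes and at most 20% mitochondrial UMIs were kept. A barcode was put in the marker list of which it held the most different markers, at least 3, and ties and the rest stayed unassigned (10.9% of young and 11.2% of old cells). Scrublet (scanpy 1.11.5, seed 1) called 2.67% of young and 1.02% of old cells as doublets, which were kept in the main results. UMIs were summed per mouse and group and tested in R 4.3.3 with edgeR 4.0.16 (two-sided quasi-likelihood F test after filterByExpr, with TMM factors), and p-values were adjusted by Benjamini-Hochberg over all genes tested, with a threshold of 0.05. The 4 groups of 2 mice gave 8 sums and 3 residual degrees of freedom. The mouse was a block because the sums of a mouse come from 1 animal, and p-values rest on 2 mice. The CD24 comparison had 4 sums and 1 residual degree of freedom, so its spread was mostly pooled over genes. The code was also tried on simulated counts, drawn around the mean levels of the real data.

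Ages were compared without a test, as ratios of CPM with exact conditional binomial intervals. CPM have exact Poisson and shares exact Clopper-Pearson intervals at 95%, and 0 counts were read as at most 3. Cells under 2000 UMIs (770 young and 496 old) were left out of thinned shares. Python 3.11.15, NumPy 2.4.6, SciPy 1.17.1 and pandas 2.3.3 were used.

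Alternatives were DESeq2 1.42.0, library totals, no low-count filter, no mouse block, other marker rules, a mitochondrial limit of 10%, and leaving out mixed barcodes, doublets or 1 mouse. Named genes were the members, up to 4 genes of each other list with the largest absolute log2 fold change past the threshold, and the 2 genes most like each member. A gene that this rule named is not reported here. For the CPM ratios between the ages, genes of other lists were named after their values were seen. The members and lists were chosen with earlier results of these data known. Of 26 other chemokines 22 had a single row and entered. Sequences and positions are from RefSeq (GRCm38.p6).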

Additional observations from a re-analysis of the deposited data

Results flagged for a closer look

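Some members moved in opposite directions between the ages in different cell groups, each with an interval that excluded no difference. These differences between groups were not tested, since there was 1 mouse per age. Cxcl1 in the old mouse stood at 1.15 times its young level in stromal cells, but at 0.658 in fibroblasts and 0.473 in blood. Its shares of cells at 2000 UMIs had overlapping intervals in each group. They were 13.3% and 12.8% in stromal cells, 27.2% and 26.9% in fibroblasts and 2.48% and 2.36% in blood. A single young blood cell held 31.9% of the Cxcl1 UMIs of its group. Cxcl2 was 3.83-fold higher in old blood cells and stood at 0.388 in old fibroblasts. Cxcl14 was higher in old stromal cells (1.38-fold), fibroblasts (1.58-fold) and osteoblasts (1.38-fold) and stood at 0.786 in blood. The share of blood cells with a Cxcl14 UMI at 2000 UMIs ran against that blood ratio. It was 2.88% (1.94 to 4.11) in the young and 5.24% (3.77 to 7.06) in the old mouse. The makeup of the blood group also differed, with 136 young and 271 old granulocytes and 375 and 51 B-lineage cells, and its part in the blood ratios was not tested.

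For CD24 status the mice differed in direction in 2 members, a difference that was likewise not tested. The ratio of CD24+ over CD24- mesenchymal cells for Ccl2 was 1.19 at 6 months and 0.893 at 24 months, and for Cxcl2 it was 0.734 and 2.18. Of the 340 Cxcl2 UMIs in CD24+ mesenchymal cells of the old mouse, 290 came from 39 fibroblasts. Neither member passed the test over both mice.

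Barcodes that entered no cell group also held Ccl4. Its level in unassigned barcodes was 83.7 CPM (young) and 222 CPM (old), above that of the blood group (65.9 and 168 CPM).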

How the results depend on the processing

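The count of members past the threshold ran from 6 to 10 between fibroblasts and stromal cells, 7 to 10 between osteoblasts and stromal cells, 6 to 9 between fibroblasts and osteoblasts and 6 to 10 between mesenchymal cells and blood, and the count of ratios over 2-fold between the ages from 10 to 12. Over the same settings and in the same order of comparisons, 27.3% to 53.2%, 21.9% to 41.6%, 15.9% to 31.9% and 52.5% to 77.4% of all genes passed. Between fibroblasts and stromal cells 6 members passed with lists chosen by scaled marker UMIs, against 37.5% of genes. For CD24 status 9 members passed with no low-count filter (12.8% of genes), 1 with no mouse block (2.67%) and 6 without mixed barcodes (11.2%). With the cell group as a term 0 of 7 tested passed (0.18%), and 5 with the highest 10% of antibody counts (13.1%). The causes were not tested. With lists by scaled UMIs, log2 fold changes turned to 1.03 for Cxcl2 and 0.20 for Ccl11 between osteoblasts and stromal cells, and to -0.23 for Cxcl5 and -0.32 for Cxcl14 between fibroblasts and osteoblasts. Without doublets Ccl4 turned to -0.078 in the latter. Cxcl5 turned to 1.72 between mesenchymal cells, pooled into 1 sum per mouse, and blood fitted alone. For CD24, Cxcl2 turned to -0.27 and Ccl2 to -0.17 after thinning, Cxcl1 to 0.45 with the cell group as a term, and Ccl2 to -0.086 and Ccl4 to 0.73 in the highest 10%. Genes called for CD24 numbered 1767, against 998 with DESeq2, 401 with no mouse block, 20 with the cell group as a term, 2883 with no filter, 1024 with lists by scaled UMIs and 900 after thinning. Calls fell from 5577 to 3462 (scaled UMIs) and 2752 (thinned) between osteoblasts and stromal cells, from 6323 to 3889 between fibroblasts and stromal cells and from 4315 to 1997 between fibroblasts and osteoblasts, both thinned. Leaving out either mouse leaves no test.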
